A study of Mus musculus with 6 samples.

Results

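The DNA repair genes outside the replication machinery were 114 of the 22322 genes in the deposited table. They were chosen by the KEGG pathways that the table gives for each gene, as members of homologous recombination, the Fanconi anemia pathway, base excision repair or nucleotide excision repair that belong to neither DNA replication nor mismatch repair. The 4 repair pathways held 148 genes, of which 26 were left out as genes of replication or mismatch repair. The 8 checkpoint and p53-responsive genes Atr, Atrip, Atm, Topbp1, Ddb2, Xpc, Ercc5 and Polk were left out by name. Homologous recombination gave 40 genes, the Fanconi anemia pathway 43, base excision repair 22 and nucleotide excision repair 22, and 13 genes belonged to 2 pathways. The rule used no measured value.

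RNA-Seq was performed on untreated DP thymocytes, the CD4+CD8+ stage of T cell development, which were sorted from the thymus by flow cytometry. Control mice carried the floxed allele without Cre (Paxbp1 fl/fl, labelled WT), and Paxbp1 cKO mice carried the same floxed allele with an Lck-cre transgene, whose promoter is active in T-lineage cells from the early stages in the thymus. The floxed part of Paxbp1 is exon 8, the mice were on a C57BL/6 background, and they were 4 to 7 weeks of age. Both sexes were used in the study, and the paper does not give the sex behind each library. There were 3 libraries per genotype, and since the labels do not say that they came from separate animals, p-values measure the spread between these libraries. In sorted cells, a lower level can come from less RNA per cell or from fewer cells of a kind, and these cannot be told apart.

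The libraries held 18963775 to 26252248 counts, and a single count stood for 0.0381 to 0.0527 CPM, the count scaled to library size. Counts of Paxbp1 over the whole gene were 40.1, 16.3 and 15.5 CPM in the control libraries and 38.8, 47.1 and 49.6 CPM in the libraries labelled cKO. They are drawn mostly from sequence outside the deleted exon, so they do not check the genotype, and every direction given here rests on the labels. All 12 markers of DP thymocytes were detected, and their summed level was 14300 to 16400 CPM in control and 10800 to 12700 CPM in cKO libraries. By the test used below 3 markers were lower in cKO and 0 higher. All 12 had negative values, with a median log2 fold change of -0.34. Of 20 macrophage markers 15 were tested and 6 were higher in cKO. Their summed level was 17.9 to 34.3 CPM in control and 62.5 to 89.1 CPM in cKO libraries, Adgre1 and Cd5l were at 0 in all 3 control libraries, and Mertk and Marco were at 0 in all libraries. Of 23 genes of proliferating cells 6 were higher in cKO, namely Ccne2, Mcm2, Mcm4, Mcm5, Mcm6 and Pcna. The others did not pass, among them Mki67 (log2 fold change 0.23) and Top2a (-0.16), and of all 23 genes 16 had positive and 7 negative values. Their summed level was 5900 to 9520 CPM in control and 9070 to 11700 CPM in cKO libraries, and control 1 was the lowest of the 6 libraries. Of 8 genes of the DN and ISP stages, which precede the DP stage, 7 were tested and 3 were higher. Their summed level was 167 to 198 CPM in control and 257 to 276 CPM in cKO libraries. Most of it came from Notch1, at 125 to 150 CPM in control and 152 to 179 CPM in cKO libraries. Hes1, which is also 1 of the repair genes, gave 5.40 to 9.44 CPM in control and 33.3 to 72.8 CPM in cKO libraries. Summed markers of B cells were 40.9 to 45.9 CPM in control and 25.8 to 28.9 CPM in cKO libraries, nearly all of it from Cd79b, the 1 of 6 that was tested, while Cd79a, Ms4a1, Pax5 and Ebf1 were at 0 to 1.05 CPM in every library. Those of erythroid cells were 18.4 to 99.5 and 1.92 to 34.9 CPM, those of dendritic cells 1.75 to 3.96 and 4.25 to 6.30 CPM, and those of thymic epithelial cells 11.3 to 13.7 and 9.95 to 14.5 CPM. Beside these counts of markers, 4.47% of all tested genes were higher in cKO and 5.89% were lower. The part of these markers in the repair gene results was not tested.

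Homologous recombination copies an intact sister sequence to mend a broken chromosome: the ends are trimmed, a recombinase is loaded by the Brca proteins, and the joined strands are then dissolved or cut apart. The Fanconi anemia pathway unhooks crosslinks between strands, with a core complex that attaches ubiquitin to Fancd2 and Fanci. In base excision repair a glycosylase removes a damaged base and an endonuclease and a polymerase fill the gap, while nucleotide excision repair opens the helix around a bulky lesion and cuts out a stretch of strand. DP thymocytes rearrange the T cell receptor alpha locus, whose breaks are sealed by end joining, a pathway outside these 4.

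A total of 107 repair genes passed the filter on low counts and were compared between genotypes by edgeR's quasi-likelihood test, with p-values adjusted over all 11488 tested genes. At an edgeR adjusted p below 0.05, 15 repair genes were higher in cKO and 7 were lower. Over all tested genes the shares were 4.47% higher, 5.89% lower and 10.4% in either direction, against 20.6% in either direction for the repair genes. By direction, the 15 higher of 107 lay above the share of all tested genes that were higher. The 7 lower of 107 lay near the share of all tested genes that were lower. Past a log2 fold change of 1 in size as well, Hes1, Brca1 and Fancb were higher and Neil3 was lower, beside 1.53% of all tested genes higher and 1.23% lower. The median log2 fold change of the repair genes was 0.05 (quartiles -0.26 and 0.38) and that of all tested genes -0.00 (quartiles -0.29 and 0.30). Repair genes therefore moved in both directions around a median near that of all genes, with 58 positive and 49 negative values.

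**Figure D1:**
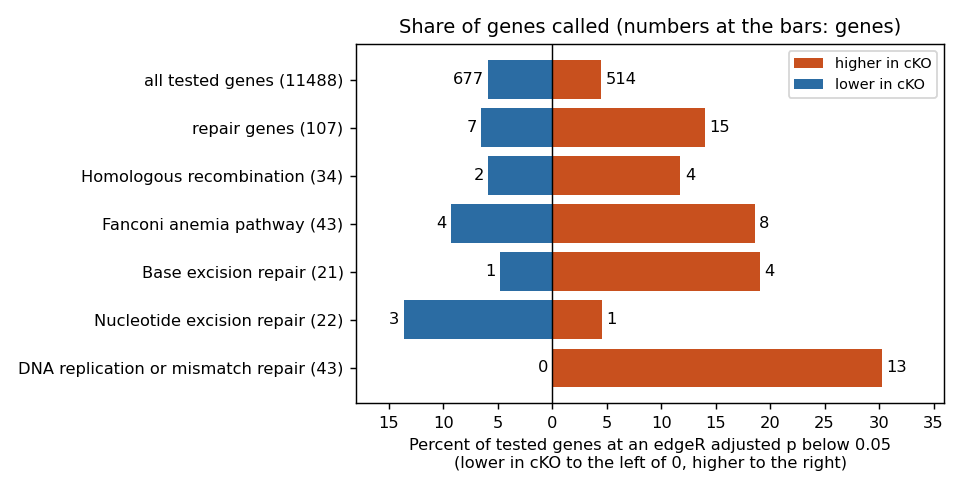
Percent of tested genes at an adjusted p below 0.05, lower in cKO to the left of 0 and higher to the right, for all tested genes, the repair genes, their 4 pathways, and genes of DNA replication or mismatch repair. Numbers at the bars count genes; 3 of the 4 pathways held more genes higher than lower, nucleotide excision repair held 1 higher and 3 lower, and the replication and mismatch repair genes held 13 higher and 0 lower.

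Each pathway held called genes of both directions. Homologous recombination had 4 genes higher and 2 lower of 34 tested (median log2 fold change 0.14), and the Fanconi anemia pathway had 8 higher and 4 lower of 43 (median 0.08). Base excision repair had 4 higher and 1 lower of 21 (median -0.10), and nucleotide excision repair 1 higher and 3 lower of 22 (median -0.03). For the 43 tested genes of DNA replication or mismatch repair, 13 were higher and 0 lower, 38 had a positive value and the median was 0.44. Of the 8 genes left out by name, 1 was higher and 1 lower. The difference between these groups of genes was not tested. In all, 28 repair genes had every cKO library above every control library and 18 had every cKO library below, beside 15.7% and 17.3% of all tested genes.

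The calls depended on which libraries were used. Without cKO 3, 1 repair gene was higher (Hes1) and 0 were lower, beside 0.359% and 0.666% of all tested genes. Without cKO 1 the counts were 8 and 2 (1.53% and 2.45% of all tested genes), and without cKO 2 they were 7 and 4 (2.81% and 3.50%). Without control 2 they were 4 and 1 (1.50% and 1.98%), without control 3 they were 9 and 4 (2.42% and 2.98%), and without control 1 they were 21 and 12 (8.42% and 8.68%). Hes1 was called in all 6 of these fits, and Ung, Top3b, Brca1 and Nbn in all but the fit without cKO 3. Rev1 and Fancc were lost without control 2 too, Cul4a and Apex1 without control 2 and cKO 1 too, and the other 13 called genes were called in 1 or 2 of the fits. All 22 called genes kept their direction in each fit. DESeq2 on all libraries called 22 repair genes higher and 7 lower, beside 7.67% and 7.68% of the genes it tested.

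**Figure D2:**
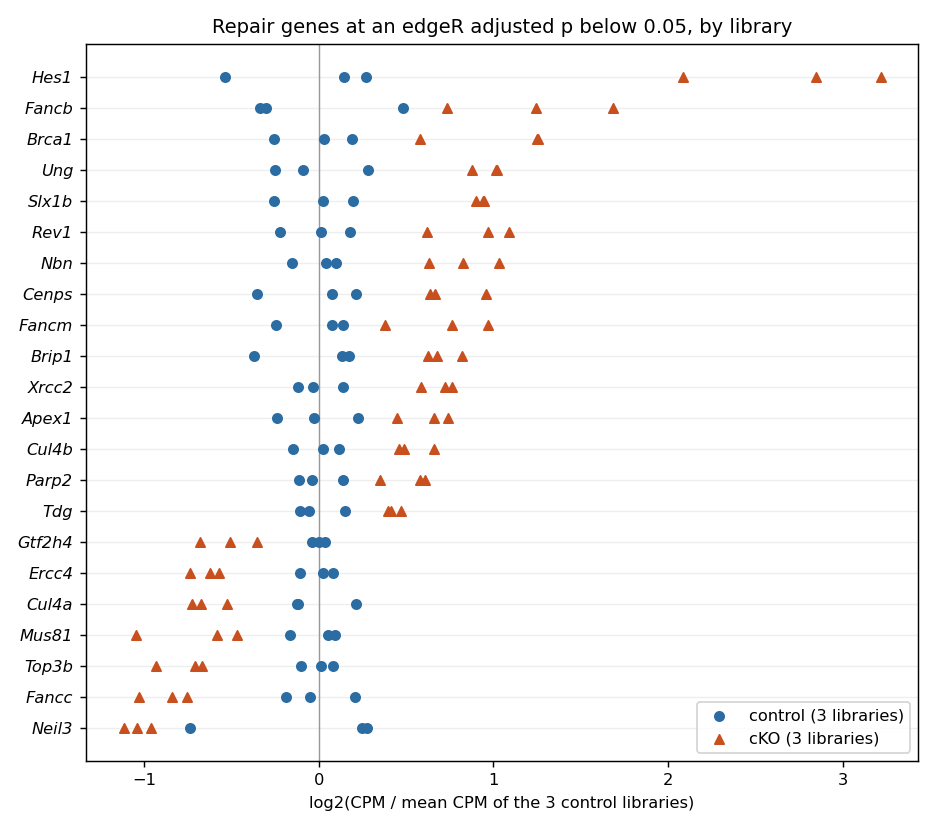
The 22 repair genes at an adjusted p below 0.05, with each library's CPM on a log2 scale relative to the mean of the 3 control libraries (circles, control; triangles, cKO). In each of these genes the cKO libraries lie on one side of all control libraries, and control 1 of Neil3 lies far below the other controls of that gene.

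In the complexes that load the recombinase, Brca1, Brip1 and Nbn were higher. Brca1, the ubiquitin ligase subunit that directs breaks to recombination, was at 31.8, 43.3 and 38.8 CPM in control and 56.7, 90.2 and 90.7 CPM in cKO libraries. All cKO libraries were above all control libraries, with cKO 1 the lowest of the 3. The log2 fold change was 1.06 ± 0.20 (SE, n = 3 per group, adjusted p = 0.0117). Brip1, the helicase that binds Brca1, was at 28.3, 41.2 and 40.1 CPM in control and 58.5, 56.4 and 64.4 CPM in cKO libraries (log2 fold change 0.71 ± 0.17, adjusted p = 0.0284). Nbn, the subunit of the Mre11 complex that signals a break, was at 25.0, 28.6 and 29.7 CPM in control and 43.0, 49.2 and 56.8 CPM in cKO libraries. Neither gene had overlapping libraries, and the change of Nbn was 0.84 ± 0.16 (adjusted p = 0.0123). The other subunits of that complex had small negative values, -0.17 for Mre11a and -0.18 for Rad50, with adjusted p of 0.617 and 0.426. Without cKO 3 the adjusted p was 0.0732 for Brca1, 0.128 for Brip1 and 0.0759 for Nbn, and Brip1 was called only without control 1.

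Several other partners of Brca1 had positive values that did not pass. Brca2, which loads the recombinase, was at 24.8, 25.8 and 30.8 CPM in control and 43.5, 38.7 and 35.2 CPM in cKO libraries, with no overlap (log2 fold change 0.53 ± 0.16, adjusted p = 0.0629). Palb2, the bridge between Brca1 and Brca2, had a log2 fold change of 0.73 ± 0.31 (adjusted p = 0.156), and control 3 at 12.7 CPM lay above cKO 2 at 11.5 CPM. Bard1, the obligate partner of Brca1, had 0.50 ± 0.25 (adjusted p = 0.222), and Rbbp8, which trims ends, had 0.47 ± 0.16 (adjusted p = 0.0933). The Brca1-A subunits, which bind ubiquitin at breaks, ran from -0.41 for Uimc1 to 0.32 for Brcc3. Of all 14 tested genes of the Brca1 complexes and their partners, 3 were higher and 0 were lower (21.4%, beside 10.4% of all tested genes). Their median was 0.40.

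The promoters of Brca1 and Brip1 are shown because both genes rose and both hold a CCAAT box, the letters bound by the factor NF-Y, and those of Cul4a and Cul4b because these paralogs moved in opposite directions and differ in this motif. Each run is the 150 bases before the RefSeq start on GRCm38.p6, read 5′ to 3′ on the gene's strand, with the motif (CCAAT, or ATTGG where it lies on the other strand) in capitals. The Brca1 stretch is chr11:101551956-101552105 on the minus strand, that of Brip1 chr11:86201194-86201343 on the minus strand, that of Cul4a chr8:13105473-13105622 on the plus strand and that of Cul4b chrX:38576197-38576346 on the minus strand.
Brca1: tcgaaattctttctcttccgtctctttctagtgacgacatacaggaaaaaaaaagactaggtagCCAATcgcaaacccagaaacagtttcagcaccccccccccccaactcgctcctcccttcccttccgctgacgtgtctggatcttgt
Brip1: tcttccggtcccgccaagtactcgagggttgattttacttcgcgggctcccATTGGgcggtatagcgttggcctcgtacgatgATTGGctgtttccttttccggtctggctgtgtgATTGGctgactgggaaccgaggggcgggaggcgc
Cul4a: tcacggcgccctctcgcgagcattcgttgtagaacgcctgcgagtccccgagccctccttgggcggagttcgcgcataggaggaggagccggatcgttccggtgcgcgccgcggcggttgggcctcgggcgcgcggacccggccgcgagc
Cul4b: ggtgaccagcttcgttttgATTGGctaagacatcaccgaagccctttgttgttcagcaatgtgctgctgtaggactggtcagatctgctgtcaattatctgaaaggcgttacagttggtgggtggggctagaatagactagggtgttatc
Brca1 held 1 box, 86 bases before the start, and Brip1 held 3, at 99, 67 and 34 bases. Cul4b held 1 at 131 bases, and the Cul4a stretch held none of these letters in this window. GC content was 50.0% for Brca1, 59.3% for Brip1, 73.3% for Cul4a and 48.0% for Cul4b.

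RefSeq promoters (GRCm38.p6) were matched by symbol for 93 of the 114 repair genes, and for 19 of the 22 called ones, which leaves out Hes1, Nbn and Xrcc2. In the 250 bases before the start, on either strand, CCAAT occurred in 53 of the 93 (57.0%), in 37.6% of tested genes and in 34.5% of all genes with a promoter. It occurred in 8 of 12 repair genes that were higher and 4 of 7 that were lower; this difference was not tested. A word known from E2F sites (TTTGGCG, the related word TTTCCCG, the variant TTTCGCG or the variant TTTGCCG) occurred in 15 of 93 promoters (16.1%), beside 9.69% of tested and 5.63% of all genes. Brip1, Cul4b and Tdg were the called genes that held one, all 3 of them higher in cKO. The word TTTGAA, known from genes of the late cell cycle, occurred in 4 of 93 (4.3%), in 0 called genes, and in 10.9% of tested and 16.3% of all genes. In the windows of the repair genes no CCAAT overlapped one of the other words. A match does not show that a factor binds, and the sets of promoters were not matched for GC content.

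Of the 10 tested recombinase genes, 1 was called, a share near the 10.4% of all tested genes. Xrcc2, which steadies the filament that searches for the intact copy, was at 15.3, 14.4 and 17.2 CPM in control and 26.5, 25.8 and 23.5 CPM in cKO libraries. Its libraries did not overlap, and the log2 fold change was 0.69 ± 0.17 (adjusted p = 0.0331, and 0.0987 without cKO 3). The related genes Rad51b, Rad51c, Rad51d and Xrcc3 and the annealing factor Rad52 lay between -0.13 and 0.13, with overlapping libraries in each and adjusted p of 0.626 or above. Rad54l, the motor that opens the copied strand, had 0.43 ± 0.21 (adjusted p = 0.203).

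The enzymes that take joined chromosomes apart moved in both directions. Top3b, a topoisomerase that acts on single strands of DNA and RNA, was at 67.7, 73.5 and 76.9 CPM in control and 44.5, 38.2 and 45.7 CPM in cKO libraries. All cKO libraries were lower, and the log2 fold change was -0.77 ± 0.14 (adjusted p = 0.00938, and 0.0523 without cKO 3). Its paralog Top3a, which works with Blm to dissolve Holliday junctions, was at 49.2, 39.3 and 31.4 CPM in control and 56.0, 58.0 and 57.8 CPM in cKO libraries. These were all higher in cKO, with the control libraries spread and the cKO libraries close together, and the change of 0.52 ± 0.17 missed the threshold (adjusted p = 0.0797). The partner helicase Blm had 0.12 ± 0.18 (adjusted p = 0.713).

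Mus81, the nuclease that cuts branched DNA, was at 50.5, 58.8 and 60.5 CPM in control and 40.9, 37.8 and 27.4 CPM in cKO libraries, with no overlap. It fell by 0.68 ± 0.17 on the log2 scale (adjusted p = 0.0365, and 0.136 without cKO 3). Slx1b, the nuclease subunit that pairs with the scaffold Slx4, was at 12.7, 11.3 and 9.28 CPM in control and 21.3, 20.7 and 21.4 CPM in cKO libraries. The cKO libraries lay close together above all controls (log2 fold change 0.93 ± 0.20, adjusted p = 0.0174, and 0.0816 without cKO 3). The other members of these nucleases, Eme1 at 0.40 ± 0.31 and Slx4 at -0.15 ± 0.21, had overlapping libraries and adjusted p of 0.450 and 0.706.

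**Figure D3:**
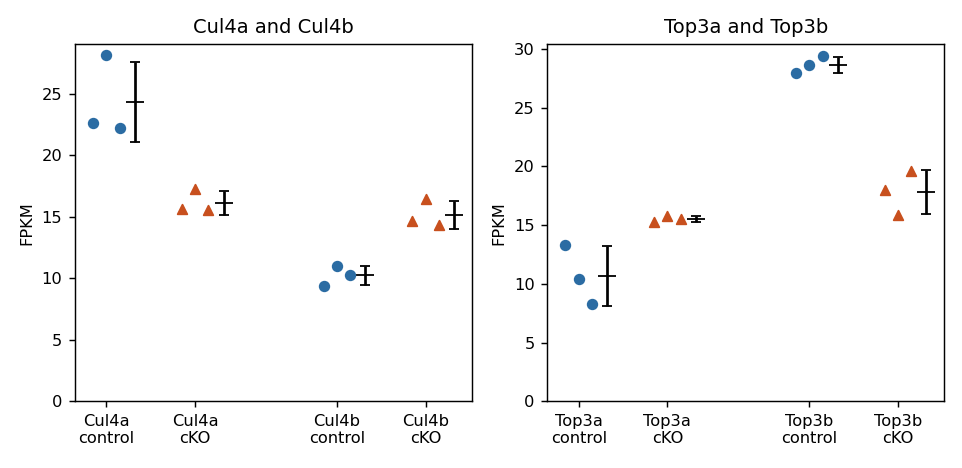
FPKM (the authors' values, scaled to gene length and library size) of the paralogs Cul4a and Cul4b and of Top3a and Top3b in each library (circles, control; triangles, cKO), with the mean and SD of the 3 libraries beside them. In controls Cul4a and Top3b lie above their paralogs, and in cKO libraries the members of each pair lie close together.

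On the FPKM scale, which corrects for length, mean Top3b was 28.6 in control and 17.8 in cKO, and mean Top3a 10.7 and 15.5. Within a library, the log2 ratio of Top3a to Top3b in CPM was -0.46, -0.90 and -1.29 in control and 0.33, 0.60 and 0.34 in cKO libraries, a difference of 1.31. This pair was chosen after its values were seen, and no test is given for it.

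In the Fanconi anemia pathway the largest change was that of Hes1, a transcriptional repressor and Notch target that KEGG lists there beside the core complex and that is not itself a repair enzyme. Hes1 was at 9.44, 5.40 and 8.66 CPM in control and 72.8, 33.3 and 56.3 CPM in cKO libraries. Every cKO library stood far above the controls, and the log2 fold change was 2.79 ± 0.31 (adjusted p = 0.00349, and 0.0287 without cKO 3). Hes1 was also among the DN and ISP genes above, of which Il2ra and Dtx1 were likewise higher (log2 fold changes 1.24 and 0.94, adjusted p of 0.0212 and 0.0287). The other tested genes of that list did not pass, with 0.25 for Notch1, -0.01 for Cd44, -0.76 for Notch3 and -0.93 for Kit, so that 4 of the 7 were positive and 3 negative. Without Hes1 the repair genes counted 14 higher and 7 lower, and their median was 0.04.

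Of the core complex and its partners, 3 more genes were higher. Fancb, a subunit of its ubiquitin ligase module, was at 11.0, 6.22 and 6.37 CPM in control and 13.1, 18.6 and 25.3 CPM in cKO libraries. The groups did not overlap, although control 1 and cKO 1 lay close, and the log2 fold change was 1.27 ± 0.31 (adjusted p = 0.0309, and 0.145 without cKO 3). Fancm, the translocase that anchors the core complex on DNA, was at 20.1, 21.0 and 16.1 CPM in control and 24.8, 32.4 and 37.3 CPM in cKO libraries (log2 fold change 0.73 ± 0.20, adjusted p = 0.0457, and 0.189 without cKO 3). Cenps, a histone-fold partner of Fancm, was at 15.0, 20.2 and 22.2 CPM in control and 29.8, 30.3 and 37.1 CPM in cKO libraries, again without overlap (log2 fold change 0.76 ± 0.19, adjusted p = 0.0357, and 0.156 without cKO 3). Fancm and Cenps rose by similar amounts, while Cenpx, the other member of the histone fold, had -0.28.

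Fancc, a core subunit, moved the other way. It was at 38.3, 45.7 and 34.8 CPM in control and 22.1, 23.5 and 19.4 CPM in cKO libraries, with every cKO library below every control. The log2 fold change was -0.87 ± 0.17 (adjusted p = 0.0129, 0.0779 without cKO 3 and 0.0600 without control 2). Fanca and Ube2t, the scaffold of the core and the enzyme that carries its ubiquitin, had 0.05 ± 0.28 and 0.33 ± 0.20 (adjusted p of 0.935 and 0.330). The proteins that receive the ubiquitin were not called: Fancd2 had -0.04 ± 0.21 (adjusted p = 0.930) and Fanci 0.31 ± 0.19 (adjusted p = 0.318). Usp1, which removes it, was at 234, 264 and 294 CPM in control and 305, 318 and 342 CPM in cKO libraries, above the controls in each (log2 fold change 0.29 ± 0.12, adjusted p = 0.148).

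The translesion polymerases copy past a lesion that is still in place. Rev1, the scaffold that recruits the others, was at 35.5, 26.9 and 31.6 CPM in control and 48.1, 61.4 and 66.7 CPM in cKO libraries. The groups did not overlap, and the log2 fold change was 0.91 ± 0.17 (adjusted p = 0.0120, 0.0750 without cKO 3 and 0.0537 without control 2). Rev3l, the catalytic subunit of polymerase zeta, had 0.26 ± 0.17 (adjusted p = 0.356) and Poli -0.48 ± 0.20 (adjusted p = 0.148).

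**Figure D4:**
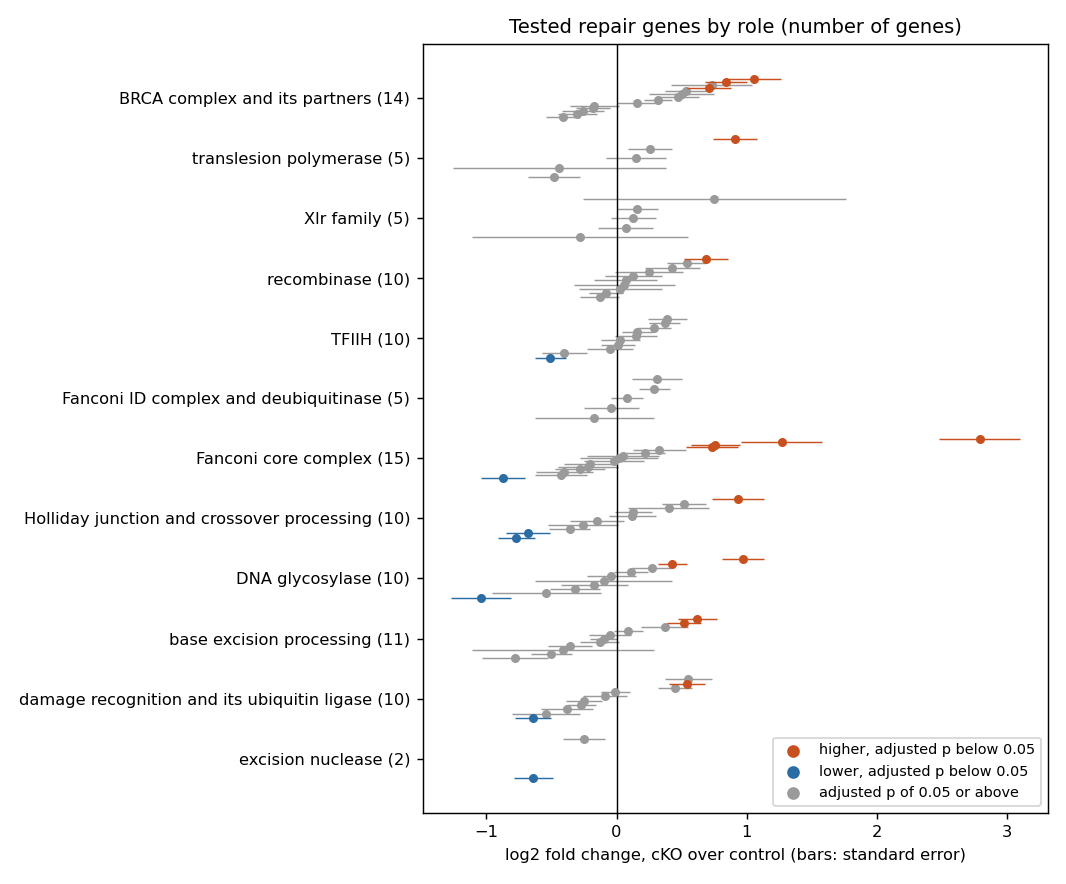
Log2 fold change of the 107 tested repair genes, cKO over control, grouped by role with the number of genes in brackets; bars give the standard error and colours mark genes at an adjusted p below 0.05. Genes of the same role fall on both sides of 0 in every group but the excision nuclease, and the Brca1 complexes have the highest median (0.40).

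In base excision repair the glycosylases split. Ung, which removes uracil from DNA, was at 29.2, 32.7 and 42.3 CPM in control and 63.9, 70.4 and 70.3 CPM in cKO libraries. All cKO libraries were well above the controls, and the log2 fold change was 0.97 ± 0.16 (adjusted p = 0.00825, and 0.0543 without cKO 3). Tdg, which removes thymine from mismatches with guanine and also oxidised forms of methylated cytosine, was at 195, 233 and 202 CPM in control and 276, 280 and 291 CPM in cKO libraries, a smaller change without overlap (0.43 ± 0.11, adjusted p = 0.0389, and 0.154 without cKO 3).

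Neil3, a glycosylase that acts on oxidised bases in single strands and on crosslinks, was at 51.0, 101 and 103 CPM in control and 41.4, 39.2 and 43.7 CPM in cKO libraries. Control 1 lay near the cKO libraries, and the other controls lay far above. The log2 fold change was -1.04 ± 0.23 (adjusted p = 0.0234), the call was kept only without control 1 (-1.30, adjusted p = 0.000405), and without cKO 3 the adjusted p was 0.0939. Control 1 was also the library with the lowest sum of proliferation genes, whose part was not tested. Other glycosylases, Ogg1 and Mutyh against oxidised guanine, Nthl1 and Neil1 against oxidised pyrimidines and Mbd4 against mismatched thymine, lay between -0.17 and 0.27 with adjusted p of 0.263 or above. Smug1, another uracil glycosylase, had -0.54 ± 0.42 (adjusted p = 0.441), a value set by control 1 at 23.4 CPM: without that library it was 0.22.

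Of the enzymes that follow the glycosylase, Apex1, the endonuclease that cuts the emptied site, was at 65.4, 56.4 and 77.9 CPM in control and 111, 90.9 and 105 CPM in cKO libraries. The groups did not overlap (log2 fold change 0.62 ± 0.15, adjusted p = 0.0297, and 0.124 without cKO 3). Parp2, which marks breaks with poly(ADP-ribose), was at 51.7, 61.7 and 54.6 CPM in control and 85.4, 71.4 and 83.6 CPM in cKO libraries, all above the controls (0.52 ± 0.13, adjusted p = 0.0384, and 0.153 without cKO 3). Parp1, the main enzyme of that family, had 0.09 ± 0.11 (adjusted p = 0.633). Parp3 had a negative value of -0.78 ± 0.25 that did not pass (adjusted p = 0.0703), with every cKO library below the controls. The gap-filling polymerase Polb had -0.13 ± 0.15, the scaffold Xrcc1 -0.05 ± 0.16 and the ligase Lig3 -0.36 ± 0.17, with adjusted p of 0.199 or above.

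In nucleotide excision repair the scaffolds of the ubiquitin ligase at damaged sites went in opposite directions. Cul4a was at 83.6, 106 and 84.2 CPM in control and 55.3, 63.5 and 57.3 CPM in cKO libraries, each cKO library lower (log2 fold change -0.64 ± 0.14, adjusted p = 0.0205, and 0.103 without cKO 3). Its X-linked paralog Cul4b was at 31.1, 37.3 and 35.0 CPM in control and 48.3, 54.4 and 47.4 CPM in cKO libraries, each cKO library higher (0.54 ± 0.14, adjusted p = 0.0426, and 0.122 without cKO 3). Mean FPKM was 24.3 in control and 16.1 in cKO for Cul4a, and 10.2 and 15.2 for Cul4b. Within a library, the log2 ratio of Cul4b to Cul4a in CPM was -1.43, -1.51 and -1.27 in control and -0.20, -0.22 and -0.27 in cKO libraries. The ratio differed by 1.17 between the groups and varied little within them, and it too was chosen after its values were seen. Ddb1, the adaptor that both scaffolds hold, had -0.27 ± 0.11 (adjusted p = 0.139). The call of Cul4b was also lost without the filter on low counts (adjusted p = 0.0507).

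Gtf2h4, a subunit of the helix-opening complex TFIIH, was at 310, 318 and 301 CPM in control and 218, 242 and 193 CPM in cKO libraries. All cKO libraries were lower, and the log2 fold change was -0.51 ± 0.12 (adjusted p = 0.0239, and 0.125 without cKO 3). Of the 10 tested TFIIH genes it was the 1 called, a share near the 10.4% of all tested genes. The helicases Ercc2 and Ercc3 and the kinase Cdk7 had 0.03, 0.29 and 0.15, with adjusted p of 0.189 or above. Ercc4, the nuclease that cuts on the 5′ side of the lesion and also acts on crosslinks, was at 43.0, 41.3 and 37.7 CPM in control and 24.4, 27.4 and 26.4 CPM in cKO libraries, with no overlap (-0.64 ± 0.15, adjusted p = 0.0244, and 0.100 without cKO 3). Its partner Ercc1 had -0.25 ± 0.16 (adjusted p = 0.331).

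The damage recognition genes described here did not pass in either direction. Rad23b, which holds the damage sensor, had 0.45 ± 0.13 (adjusted p = 0.0585). The factors that recognise stalled transcription had values of opposite sign, with 0.55 ± 0.18 for Ercc8 (adjusted p = 0.0731) and -0.54 ± 0.26 for Ercc6 (adjusted p = 0.213). Xpa, which verifies the lesion, had -0.38 ± 0.20 (adjusted p = 0.243).

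Repair genes were expressed at a median of 14.6 FPKM over the 6 libraries, 74 of the 114 were above 10 FPKM and 10 were below 1 FPKM. The highest was Hmgb1 at 2940 FPKM, an abundant chromatin protein that KEGG lists under base excision repair, followed by Rbx1 at 240 FPKM, Gtf2h4 at 170 FPKM and Ddb1 at 112 FPKM. By role, the median level ran from 5.14 FPKM for the translesion polymerases to 43.9 FPKM for TFIIH, apart from the Xlr family. The filter left out 7 genes: Sycp3 had 29 counts in all, 23 of them in cKO 2, and Neil2, 1700013H16Rik, Gm1140, Gm14692, Gm5136 and Gm773 had 0 counts. A count of 0 allows a level of up to 0.114 to 0.158 CPM (3 counts) depending on the library, for counting error only. The table assigns 10 genes of the Xlr family to homologous recombination through the entry of Sycp3, a meiotic chromosome protein. Of these, 5 were tested and 0 called, and the near-identical copies Xlr4a, Xlr4b and Xlr4c may share reads.

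Some called genes overlap a gene on the other strand, and the sources used here do not say whether counting used the strand. In GENCODE M21 on GRCm38, 4 of the 22 have more than 10% of their exon bases within exons of an opposite gene, whose reads then cannot be told apart. For Apex1 (chr14:50924968-50927139) the share was 61.7% with Pip4p1, which had a log2 fold change of 0.40 (adjusted p = 0.107). Rev1 (chr1:38052786-38129801) shared 26.6% with Eif5b, which had 0.48 (adjusted p = 0.0519). Slx1b (chr7:126689468-126695784) shared 10.2% with Bola2, which had 0.48 (adjusted p = 0.302), and Fancc (chr13:63285043-63497278) shared 16.4% with Gm16133. The partners Pip4p1, Eif5b and Bola2 had values of the same sign as the repair gene.

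Beyond the 4 pathways, 43 further repair genes were examined, of which 4 were higher and 1 was lower, beside the 4.47% and 5.89% of all tested genes, with a median of 0.14. Rif1, which protects broken ends from trimming, was at 51.2, 59.9 and 49.8 CPM in control and 100, 88.9 and 95.8 CPM in cKO libraries (log2 fold change 0.83 ± 0.13, adjusted p = 0.00685). Tonsl, which acts in recombination at stalled forks, was at 22.5, 22.6 and 22.0 CPM in control and 33.6, 54.3 and 51.4 CPM in cKO libraries (1.06 ± 0.19, adjusted p = 0.0104). Neither gene had overlapping libraries. Polq, the polymerase of end joining through short repeats, had 0.96 ± 0.22 (adjusted p = 0.0244) and the helicase Zgrf1 0.86 ± 0.20 (adjusted p = 0.0245), while Tdp1, which frees trapped topoisomerase from DNA ends, had -0.69 ± 0.17 (adjusted p = 0.0321). Without cKO 3 none of these 5 calls was kept, with adjusted p of 0.0509 for Rif1, 0.0680 for Tonsl, 0.122 for Polq, 0.122 for Zgrf1 and 0.142 for Tdp1. Polq was also lost without cKO 2 (0.0564) and control 2 (0.0896), Zgrf1 without control 2 (0.0767) and control 3 (0.0731), and Tdp1 in every omission but that of control 1 (0.0769 to 0.142). Of the 13 tested genes of non-homologous end joining, 1 was higher and 0 were lower (7.69%, beside 10.4% of all tested genes), and their median was -0.18.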

How the data were processed

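RNA was extracted from sorted DP thymocytes and sequenced in 3 control and 3 cKO libraries; the labels name a SMARTER kit and the paper's methods the Discover-sc WTA and TruePrep kits. The table that the authors deposited lists, for 22322 genes, a raw count of reads in each library, which was used for all tests, and FPKM, which the authors scaled to gene length and library size and which was used for levels. The authors' log2 ratio, p-value and FDR were not used. The submitters' processing notes name fastp 0.18.0, Bowtie2 2.2.8, HISAT2, StringTie 1.3.1 and RSEM, and no source used here gives their roles, the genome build, the annotation or the strand setting.

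Counts were tested in R 4.3.3 with edgeR 4.0.16 (TMM, quasi-likelihood, genotype as the only term) on the 11488 genes that filterByExpr kept (minimum count 10, minimum total 15), and p-values were adjusted by Benjamini-Hochberg. CPM are scaled by TMM factors of 0.981 to 1.01. The script was tested on simulated data. A second call rule, an absolute log2 fold change above 1 with an adjusted p below 0.05, follows the paper's methods. Means and SD are over 3 libraries per group, and libraries of a group differed by more than sampling noise. The SE of a log2 fold change is its size divided by the square root of edgeR's F statistic. Named genes were all called members, in each pathway the 2 largest uncalled changes with a mean of at least 5 CPM, a list of core members, and called genes of a further repair list; other genes named were chosen after their values were seen. Values of 2 such genes are left out here. The members, gene lists and markers were chosen with earlier results of these data known. Alternatives were the omission of each library, the replicate number as a block, DESeq2 1.42.0, limma-voom (limma 3.58.1), factors by relative log expression (RLE), library totals alone, and either no filter or a mean of at least 5 CPM. Positions came from GENCODE M21 and promoters from RefSeq; roles were assigned by hand.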

Additional observations from a re-analysis of the deposited data

How the results depend on the processing

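Counts of repair genes higher and lower were 15 and 7, and 22 and 7 with DESeq2, 16 and 7 with RLE factors, total counts alone or limma-voom, 15 and 7 without a filter, and 17 and 7 with a mean of at least 5 CPM. DESeq2 called 10 genes of homologous recombination in place of 6 and 7 of nucleotide excision repair in place of 4. Over all tested genes the share called in either direction was 10.4% as reported, 15.4% with DESeq2, 10.3% with RLE factors or total counts alone, 11.5% with limma-voom, 8.85% without a filter, 14.4% with the filter at 5 CPM, and 10.8% with the block. The fold threshold kept 0 lower genes with limma-voom and 0 with the replicate block, since Neil3 then had -0.98 and -0.97. Same-numbered libraries did not deviate together (correlations 0.045, 0.038 and -0.03). With 3 libraries per group this cannot show whether they were littermates or handled together. The replicate block gave 12 higher and 7 lower, without Xrcc2, Parp2, Cul4b and Fancm, and of the further repair genes without Tdp1 (adjusted p = 0.0504). Leaving out 1 library gave 1 to 21 higher (lowest without cKO 3, highest without control 1), 0 to 12 lower, 1 to 5 higher and 0 to 1 lower past the fold threshold, 0 to 10 called in homologous recombination, 1 to 15 in the Fanconi anemia pathway, 0 to 5 in base excision repair and 0 to 9 in nucleotide excision repair. The median ranged from 0.02 to 0.09 and 49 to 64 genes did not overlap, a count that rises with fewer libraries. Changes of sign over the 6 omissions were read only for the core members and the largest uncalled changes, and other uncalled repair genes may also have changed sign. Of those read, the genes that changed sign were near 0 on all libraries except Smug1 (-0.54). Their log2 fold changes were -0.06 to 0.16 for Ercc2, -0.20 to 0.32 for Fanca, -0.29 to 0.08 for Fancd2, -0.13 to 0.04 for Mutyh, -0.70 to 0.29 for Nthl1 and -0.19 to 0.28 for Rad51b. They were -0.18 to 0.37 for Rad51c, -0.05 to 0.30 for Rad52, -0.41 to 0.03 for Slx4, -0.83 to 0.22 for Smug1, -0.19 to 0.05 for Xrcc1 and -0.10 to 0.27 for Xrcc3. Most calls were lost without cKO 3, and the cause was not tested.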
